A study of Mus musculus with 6 samples.

Results

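The genes examined here encode core subunits of TFIID, the general transcription factor that recognises core promoters and nucleates the assembly of RNA polymerase II, together with Taf4b, the closest paralog of the inactivated gene. The set holds 10 genes: Taf4 (the gene called Taf4a in the study), Taf4b, Taf12, Taf5, Taf6, Taf9, Taf10, Taf3, Taf8 and Tbp. Their accessible regions were taken from an ATAC-seq peak table of muscle stem cells (MuSCs) as every peak that the table assigns to one of these symbols plus every peak without a gene that lies within the body of one of them. This gave 25 of 75412 peaks, 11 by symbol and 14 inside a gene body, spread over 9 of the 10 genes, and all 25 exceeded the minimum mean value of 10 set for testing. Taf6 had no peak under its own symbol or inside its body.

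ATAC-seq reports where the Tn5 transposase can insert adapters into DNA, and was performed on freshly isolated MuSCs of C57BL/6 mice aged 8 to 20 weeks. The 3 Control libraries came from littermates with the floxed Taf4a alleles, with or without a Pax7-driven Cre. The 3 Taf4a sKO libraries came from mice with the floxed alleles and Pax7-CreERT, a tamoxifen-dependent recombinase made in Pax7-expressing cells, which were given tamoxifen to remove exons 11 and 12. The sources used here do not state for single Control libraries whether the animals carried Cre or received tamoxifen, so effects of Cre activity or tamoxifen and of the deletion cannot be told apart. Each library was made from 50000 sorted cells, depleted of SCA1+, CD45+ and CD31+ cells and selected by integrin alpha-7 or a Pax7 reporter, and nothing in the labels ties the replicate numbers of the groups to each other. The Control libraries held 27151598, 35203358 and 34748288 reads in peaks, and the Taf4a sKO libraries 31931281, 30403264 and 32511552, as recovered from the deposited depth-scaled values. All values below are these depth-scaled read counts per peak, given for replicates 1, 2 and 3 in order. Fold changes are Taf4a sKO over Control on the log2(value + 1) scale from limma, with standard errors (SE) and p-values adjusted by the Benjamini-Hochberg procedure over all 75384 tested peaks.

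Within TFIID, TBP bends the TATA element, and the TBP-associated factors (TAFs) contact the surrounding promoter and chromatin. Many TAFs pair through histone folds: TAF4 or TAF4B with TAF12, TAF6 with TAF9, and TAF10 with TAF3 or TAF8, while TAF5 provides a WD40 scaffold. TAF4B can take the place of TAF4 in the complex and is best known from germ cells and ovarian follicles. Accessibility of a promoter is a property of the chromatin and not a measure of transcript or protein.

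The sequences below show the deleted coding exon and the promoters of Taf4, the inactivated gene, and of Taf5, whose promoter peak was lower in Taf4a sKO. Exon 12 of Taf4 (chr2:179922954-179923079, mm10, minus strand) is in capitals within 300 bases of the reference genome at chr2:179922867-179923166, read in the direction of the gene. For the promoters, the 250 bases before the RefSeq start (GRCm38) are printed in the direction of the gene, with matches on either strand in capitals to the letters of the TATA box (TATAAA), the CCAAT box (CCAAT) and the GC box (GGGCGG), where adjoining matches run together. They lie at chr2:179976647-179976896 (minus strand) for Taf4 and chr19:47067498-47067747 (plus strand) for Taf5.
Taf4 exon 12: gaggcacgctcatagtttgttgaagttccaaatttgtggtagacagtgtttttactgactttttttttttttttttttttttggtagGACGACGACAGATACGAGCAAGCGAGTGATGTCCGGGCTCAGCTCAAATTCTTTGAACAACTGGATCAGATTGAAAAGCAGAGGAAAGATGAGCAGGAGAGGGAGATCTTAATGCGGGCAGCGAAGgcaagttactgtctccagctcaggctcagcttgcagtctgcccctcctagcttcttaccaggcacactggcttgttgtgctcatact
Taf4 promoter: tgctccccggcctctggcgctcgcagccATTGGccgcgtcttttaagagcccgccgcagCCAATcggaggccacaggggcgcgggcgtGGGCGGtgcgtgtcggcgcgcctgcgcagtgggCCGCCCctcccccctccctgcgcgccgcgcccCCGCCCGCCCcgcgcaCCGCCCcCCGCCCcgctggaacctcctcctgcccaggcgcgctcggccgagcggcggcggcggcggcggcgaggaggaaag
Taf5 promoter: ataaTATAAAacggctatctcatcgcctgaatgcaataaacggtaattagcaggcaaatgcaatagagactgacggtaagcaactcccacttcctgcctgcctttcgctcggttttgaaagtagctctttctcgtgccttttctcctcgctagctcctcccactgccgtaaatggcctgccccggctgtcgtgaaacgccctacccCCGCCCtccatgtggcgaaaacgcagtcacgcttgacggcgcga

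RefSeq windows of 300 bases, reaching 250 bases before and 50 after a start, were matched for 9 of the 10 genes, in 11 windows, and Taf4b was not among them. The GC box letters were found in 9 of these 11 windows and in 35.7% of all 32851 windows, with a median GC content of 65.3% in the 11 and 52.7% in all windows. CCAAT was found on either strand in 1 of 11, the window of Taf4, which held 2 matches, one in each orientation, against 37.4% of all windows. TATAAA was found in 2 of 11, the window of Taf5 and one of 2 windows of Taf6, against 13.6% of all windows. The match in the Taf5 window stands near its far upstream end. Such letter matches are descriptions of the windows and do not show binding.

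No promoter peak of the set, that of the paralog Taf4b included, was called higher in Taf4a sKO MuSCs, and 1 was called lower, that of Taf5. Intervals at several of them still allowed a gain, and the counts changed when single libraries were left out. Without Control replicate 3, 1 promoter peak (Taf8) was higher, where 29.6% of all promoter peaks were higher. None was lower in the 5 fits that left out a library other than Control replicate 2. With all libraries included, 12.7% of all 15267 promoter peaks of protein-coding genes (within 1000 bp of a start) were higher and 6.44% lower by the same test. The set counted 0 higher and 1 lower among its 8 promoter peaks, those of Taf4, Taf4b, Taf12, Taf5, Taf10, Taf3, Taf8 and Tbp. Their median log2 fold change was −0.05, beside 0.06 for all promoter peaks and 0.11 for all peaks. The count of lower promoters depended on how libraries were scaled. It was 4 under median-of-ratios scaling, with Taf4, Taf12 and Taf3 added, and 5 with the totals in peaks set equal or after quantile normalization, with Tbp added as well, while the count of higher promoters stayed at 0 under all of these. Lower calls rose over the whole table as well: of all promoter peaks, 22.9%, 32.2% and 33.7% were lower under these 3 scalings in turn.

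**Figure D1:**
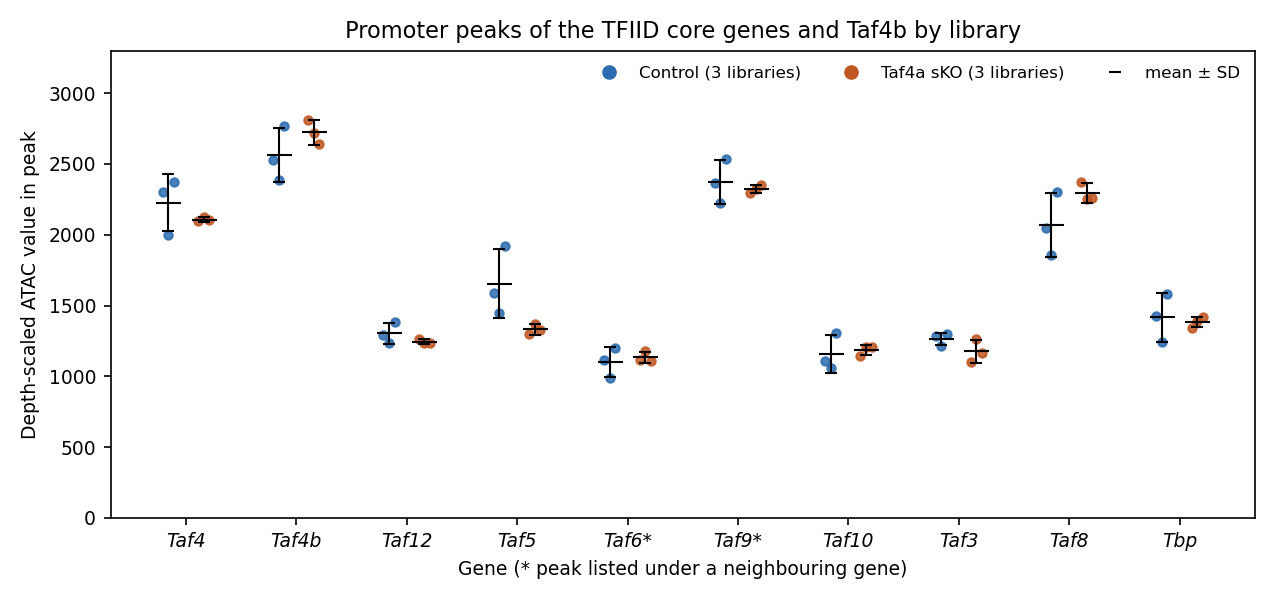
Depth-scaled ATAC values (vertical axis, from 0) of the promoter peak of each of the 10 genes (horizontal axis), with 3 Control libraries in blue, 3 Taf4a sKO libraries in orange and black bars for mean ± SD. The groups overlap at every gene except Taf5, where all Taf4a sKO libraries lie below all Control libraries. The share of all promoter peaks with such a separation was not counted, so it is given as a description. The starred peaks are listed under neighbouring genes.

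The Taf4b promoter peak (chr18:14782735-14784047, spanning the start and first exon) had values of 2531, 2389 and 2767 in Control and 2810, 2719 and 2639 in Taf4a sKO. The highest Control library lay between the Taf4a sKO libraries, so the groups overlapped. Its log2 fold change was 0.09 (SE 0.10, adjusted p = 0.50 by limma), a difference of 6.41% with a 95% interval from −7.66% to 22.6%, and it was −0.02, −0.06 and −0.03 under the 3 other scalings. The interval of this fit thus reached a gain of 22.6%, and a larger gain of accessibility at this start lay outside it. With 1 library left out the log2 fold change ran from 0.04 to 0.15, without a call (adjusted p from 0.11 to 0.75 by limma). Over the 6 libraries the log2 value of the Taf4b promoter had a Pearson r of 0.929 with the mean log2 value of all peaks, which shares the depth scaling, and that of the Taf4 promoter an r of 0.242.

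The promoter peak of Taf4 itself was not called. The peak at chr2:179975752-179977530, over the start and exon 1, had 2305, 1998 and 2375 in Control and 2095, 2124 and 2104 in Taf4a sKO. Its log2 fold change was −0.07 (SE 0.10, adjusted p = 0.59 by limma). The Taf4a sKO libraries lay within the Control range. The 3 other scalings gave −0.19, −0.22 and −0.20, each with a call as lower (adjusted p from 0.0020 to 0.0087 by limma), so that for this peak the call rests on the scaling.

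Outside the core promoter, a peak 3331 bp upstream of the Taf4 start, at chr2:179979788-179980166, was higher. It had 488, 437 and 653 in Control and 831, 695 and 759 in Taf4a sKO, so that the lowest Taf4a sKO library stood above the highest Control library. The log2 fold change was 0.55 (SE 0.14, adjusted p = 0.0030 by limma), a 1.46-fold difference. This was the only called peak of Taf4 that was higher.

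The 3 peaks in the Taf4 body all fell, in the order exon 12, exon 7 and intron 14 by size. Over the floxed exon 12 (chr2:179922849-179923263) the values were 65, 78 and 137 in Control against 44, 22 and 25 in Taf4a sKO, and Control replicate 3 stood well above the others. Recovered reads there numbered 47, 78 and 111 in Control and 32, 16 and 19 in Taf4a sKO. The signal over the exon printed above thus stood at 0.334-fold of Control (95% interval 0.216 to 0.517) and not at 0. The log2 fold change was −1.58 (SE 0.30, adjusted p = 3.4e-04 by limma). The study reports incomplete purity of its sorted cells, and the part of other cells in the remaining signal was not tested. The peak over exon 7 (chr2:179931701-179932202), which is not floxed, had 253, 249 and 302 against 140, 145 and 165 (log2 fold change −0.83, SE 0.15, adjusted p = 1.4e-04 by limma). The peak in intron 14 (chr2:179916955-179917641), downstream of the floxed exons, had 132, 123 and 159 against 104, 95 and 93 (log2 fold change −0.49, SE 0.18, adjusted p = 0.027 by limma), and its call was lost without Control replicate 3 (adjusted p = 0.064) or without Taf4a sKO replicate 2 or 3 (0.068 and 0.092).

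The signal over exon 12 was also set against the other body peaks of the same libraries. Its log2 value minus the mean log2 value of the exon 7 and intron 14 peaks was −1.48, −1.16 and −0.67 in Control and −1.44, −2.36 and −2.26 in Taf4a sKO. Taf4a sKO replicate 1 was at the level of Control replicate 1, and the groups overlapped. The difference of −0.92 had p = 0.2 in a two-sided exact permutation test, whose smallest possible p with 3 against 3 libraries is 0.1. Relative to the promoter peak of Taf4 instead, the difference was −1.51 and the groups did not overlap (two-sided exact permutation p = 0.1).

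**Figure D2:**
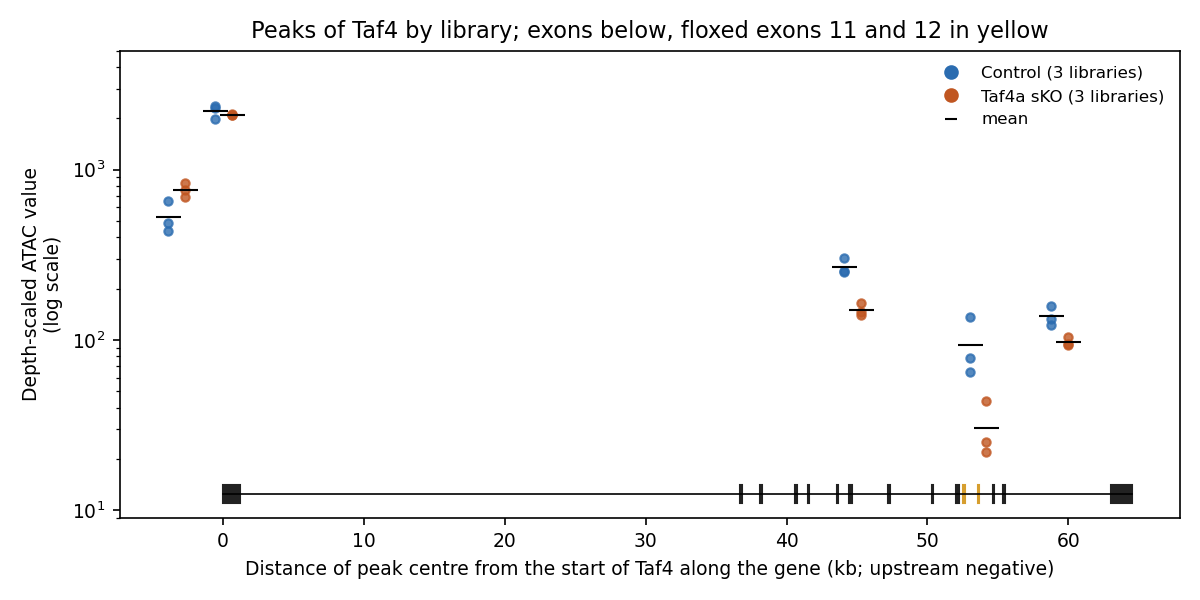
Depth-scaled ATAC values (vertical axis, log scale) of the 5 Taf4 peaks against the distance of the peak centre from the Taf4 start in kb (horizontal axis), with Control in blue, Taf4a sKO in orange, black bars for means and exons drawn below. The upstream peak is higher, the promoter peak overlaps and the 3 body peaks are lower in Taf4a sKO; the points of a peak are set apart sideways for legibility.

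Taf4b, the paralog, carried 4 further peaks in its body, of which 1 was called. The peak over its exon 7 (chr18:14813286-14813458) had 44, 31 and 36 in Control and 17, 15 and 17 in Taf4a sKO, with no overlap. Its log2 fold change was −1.12 (SE 0.31, adjusted p = 0.0060 by limma), on 29 to 32 recovered reads per Control library and 11 to 13 per Taf4a sKO library. Because of these low values, the peak did not enter the test with a minimum mean of 50. The exon 13 peak had 71, 95 and 69 against 93, 77 and 83 (log2 fold change 0.12, adjusted p = 0.68 by limma). The neighbouring intron 13 peak had 25, 16 and 12 against 22, 25 and 37 (0.66, SE 0.36, adjusted p = 0.15 by limma), the widest interval of the set. The intron 14 peak had 43, 48 and 58 against 36, 38 and 41 (−0.36, adjusted p = 0.26 by limma), with groups that did not overlap but a difference that did not pass the test.

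TAF12 is the histone-fold partner of both TAF4 and TAF4B. The Taf12 promoter peak (chr4:132273957-132274822) had 1293, 1236 and 1381 in Control and 1263, 1232 and 1235 in Taf4a sKO (log2 fold change −0.07, adjusted p = 0.64 by limma). An upstream peak, centred 4538 bp before the start, had 1899, 1521 and 1927 against 1822, 1477 and 1521 (−0.15, adjusted p = 0.32 by limma). Both overlapped between groups, and both were called lower under each of the 3 other scalings. Near the 3′ end of the gene, the peak over an untranslated stretch of exon 6 (chr4:132293108-132293376) had 71, 95 and 108 against 32, 34 and 37. This was the smallest p of the set (log2 fold change −1.37, SE 0.23, adjusted p = 5.2e-05 by limma), with Taf4a sKO at 0.388-fold of Control (95% interval 0.278 to 0.540).

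Taf5 encodes the scaffold subunit and had a single peak, over its start and first exon (chr19:47067291-47068804). Its values were 1587, 1449 and 1922 in Control and 1296, 1372 and 1326 in Taf4a sKO, below all Control libraries. The log2 fold change was −0.30 (SE 0.11, adjusted p = 0.032 by limma), a difference of −18.9% (95% interval −30.8% to −4.88%). The call was kept under the 3 other scalings but was lost when any library other than Control replicate 2 was left out, with log2 fold changes from −0.33 to −0.19 and adjusted p from 0.053 to 0.099 in those 5 fits.

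For the TAF6 and TAF9 pair, the peaks at the starts are listed under neighbours, Cnpy4 for Taf6 and Rad17 for Taf9, so they stood outside the 25 and cannot be assigned to one gene of each pair. The peak at the Taf6 start (chr5:138186810-138188174) had 1117, 991 and 1199 in Control and 1114, 1180 and 1108 in Taf4a sKO. The peak at the Taf9 start (chr13:100650678-100651823) had 2363, 2223 and 2535 against 2293, 2321 and 2351. Neither was called (log2 fold changes 0.04 and −0.03, adjusted p = 0.77 and 0.83 by limma), although the Taf9 start was lower under the 3 other scalings (adjusted p from 0.0054 to 0.021). The peak listed for Taf9 itself, centred 8477 bp downstream of its start, had 118, 96 and 106 against 79, 97 and 110 and was not called (adjusted p = 0.51).

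TAF10 pairs with TAF3 or TAF8. The Taf10 promoter peak (chr7:105744006-105744736) had 1106, 1056 and 1308 in Control and 1142, 1206 and 1204 in Taf4a sKO (log2 fold change 0.04, adjusted p = 0.80 by limma). The Taf8 promoter peak (chr17:47501721-47502626) had 2045, 1855 and 2305 against 2374, 2250 and 2261 (0.16, adjusted p = 0.25 by limma). It was the highest estimate among the 8 promoter peaks, with an interval of the difference from −4.02% to 29.2%. It was called higher when Control replicate 3 was left out (0.24, adjusted p = 0.016 by limma), where 29.6% of all promoter peaks were higher. Tbp, whose product contacts the TATA element, had 1425, 1241 and 1582 against 1343, 1389 and 1417 in its promoter peak (chr17:15499394-15500309; −0.03, adjusted p = 0.86 by limma).

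Taf3, whose product carries a PHD finger that reads trimethylated H3K4, had the most peaks of the set, 7. Its promoter peak (chr2:10047782-10049274) had 1282, 1212 and 1297 in Control and 1102, 1262 and 1168 in Taf4a sKO (log2 fold change −0.10, adjusted p = 0.46 by limma), with overlapping groups. Of 6 peaks in its introns, 2 were higher. The one centred 86836 bp into the gene, in intron 2 (chr2:9961485-9962036), had 86, 79 and 100 against 136, 159 and 155, with no overlap, and a log2 fold change of 0.76 (SE 0.18, adjusted p = 0.0012 by limma). The one centred 92417 bp into the gene (chr2:9955792-9956566) had 343, 346 and 435 against 498, 481 and 481 (0.39, SE 0.13, adjusted p = 0.023 by limma). This call was lost with the totals in peaks set equal (adjusted p = 0.053) or after quantile normalization (0.16), and without any single library other than Control replicate 3 (0.054 to 0.10). The other 4 intron peaks had log2 fold changes from 0.04 to 0.23 and were not called. Without Control replicate 3, those in intron 3 (0.50, adjusted p = 0.031) and at 52260 bp (0.20, adjusted p = 0.040) were called higher, 6 of the 25 peaks in all being higher in that fit against 37.8% of all peaks.

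**Figure D3:**
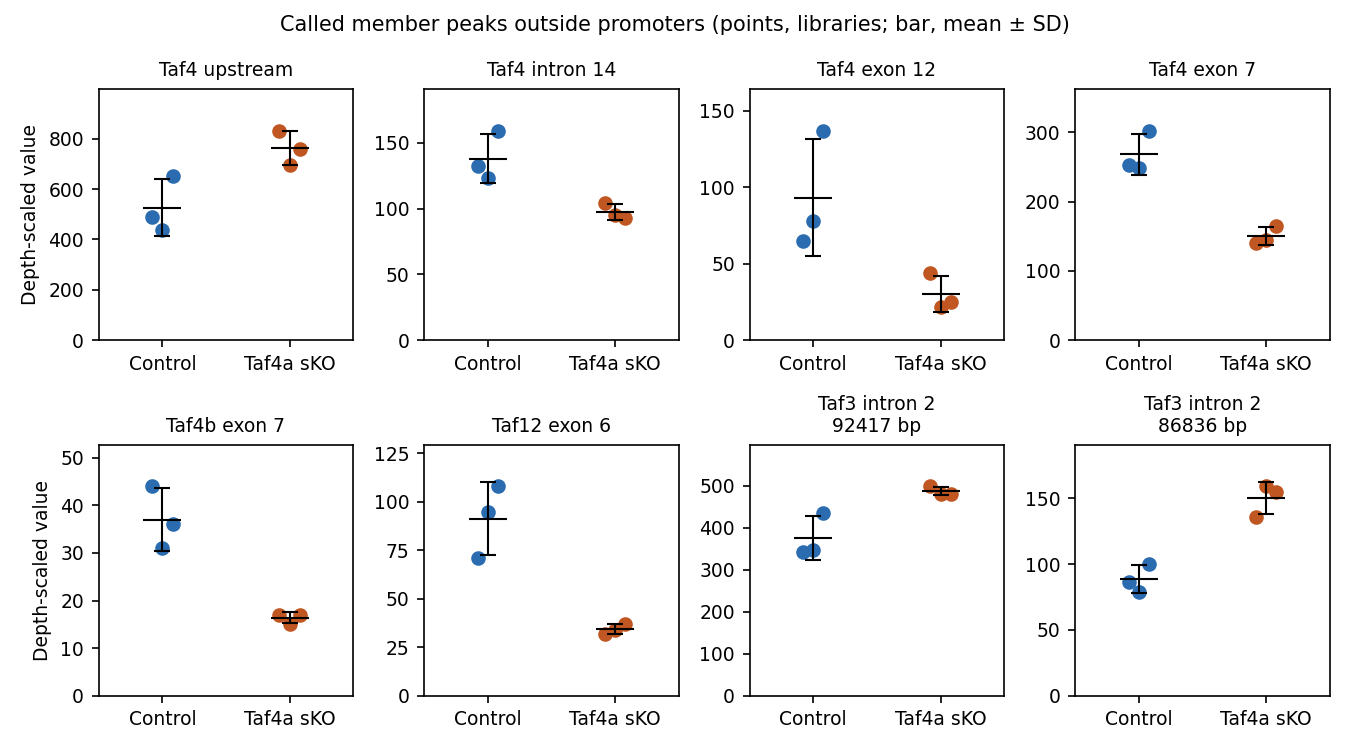
Depth-scaled ATAC values (vertical axes, from 0) in the 8 called peaks of the set that lie outside promoters, one panel each, with points for the 3 libraries of each genotype and bars for mean ± SD. The genotypes do not overlap in any panel, but the peaks were chosen by the test on these same libraries. Their separation therefore adds no support to the calls. The Taf4 upstream and the 2 Taf3 intron 2 peaks are higher and the other 5 lower in Taf4a sKO.

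Over all 25 peaks, 3 were higher and 6 lower in Taf4a sKO, whereas 28.0% of all tested peaks were higher and 13.9% lower. Under median-of-ratios, equal totals and quantile scaling 10, 11 and 11 of the 25 were lower, and 22.5%, 25.8% and 25.1% of all peaks. The median log2 fold change of the set was −0.03. Of its 4 peaks over coding exons outside promoters, 3 were lower, those over Taf4 exons 7 and 12 and Taf4b exon 7; of all 3523 such peaks, 20.1% were lower and 23.4% higher. Of the 14 peaks without a gene inside the gene bodies, 2 were higher and 5 lower, against 33.1% and 16.5% of all 21392 peaks of this kind. With a log2 ratio of the group means beyond 1 as the criterion, 3 of the 25 were lower (Taf4 exon 12, Taf4b exon 7 and Taf12 exon 6) and 0 higher, against 5.36% and 7.02% of all peaks. Counts this small do not set the genes apart from the rest of the table.

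**Figure D4:**
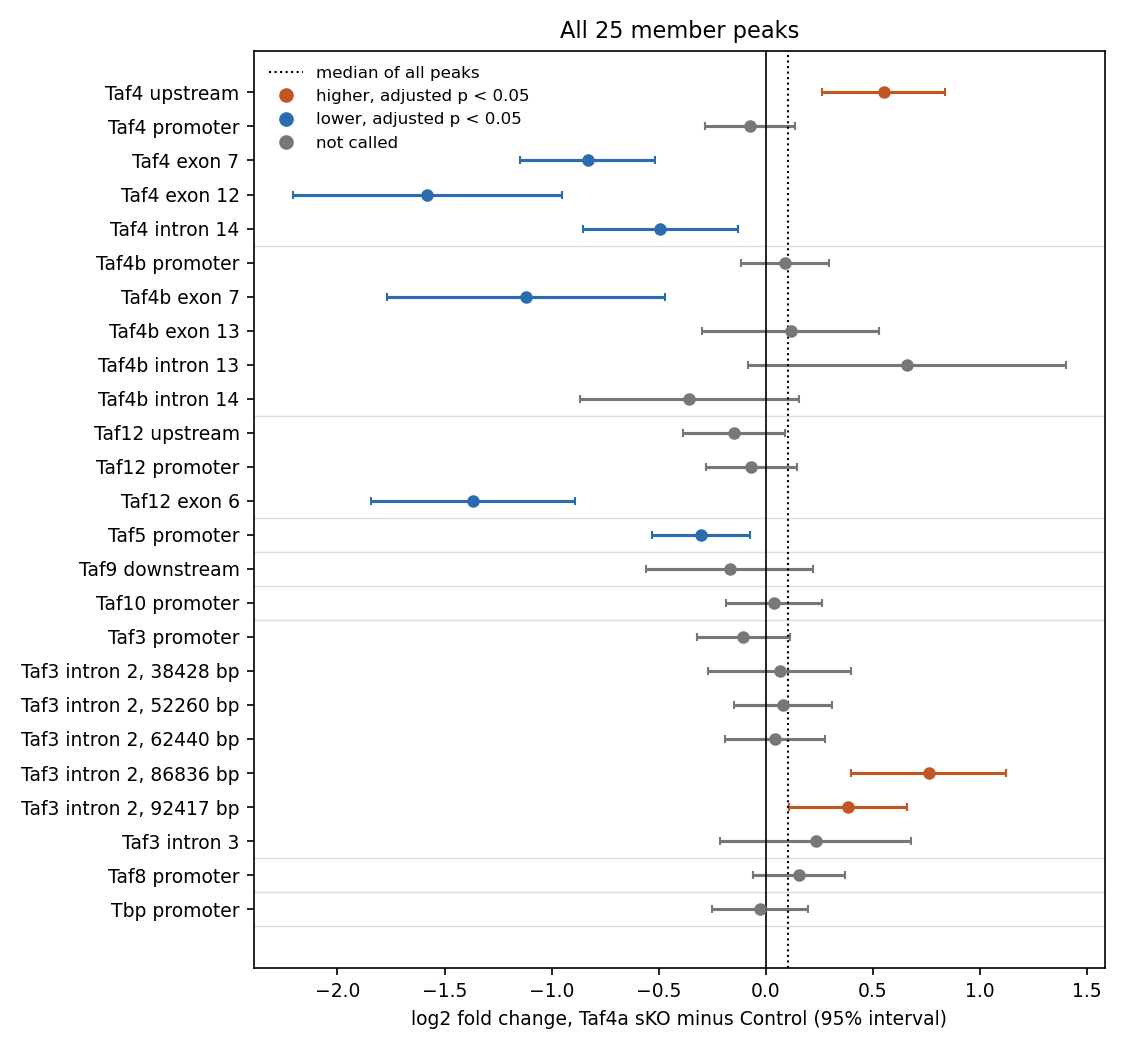
Log2 fold change (horizontal axis, Taf4a sKO minus Control) with its 95% interval for each of the 25 peaks, grouped by gene and ordered along each gene, with higher calls in orange, lower calls in blue and others in grey. Promoter peaks cluster near 0 and near the dotted median of all peaks (0.11), while the widest departures are peaks in the bodies of Taf4, Taf4b and Taf12.

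Levels were compared between genes per 1000 bp of peak width, on the depth-scaled scale. In Control MuSCs the promoter peaks ranked Taf8 (2283 ± 249, SD, n = 3), Taf9 (2071 ± 136), Taf4b (1952 ± 145), Taf10 (1582 ± 183), Tbp (1546 ± 186), Taf12 (1505 ± 84.4), Taf4 (1251 ± 113), Taf5 (1092 ± 161), Taf3 (846 ± 30.4) and Taf6 (808 ± 76.8), where the values for Taf9 and Taf6 are those of the peaks shared with Rad17 and Cnpy4. The ranges of mean ± SD were separate between the neighbours Taf4b and Taf10, Taf12 and Taf4, and Taf5 and Taf3, and overlapped between the other neighbours. The paralog promoter thus stood above that of Taf4 in Control cells, at 1952 against 1251 per 1000 bp. In Taf4a sKO the levels of Taf4b and Taf4 were 2074 ± 65.2 and 1185 ± 8.34.

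Among 13 other promoter peaks of the set and of the further TFIID subunits, those most like the Taf4 promoter over the 6 libraries were Tbp (Pearson r = 0.898 of log2 values), Taf11 (0.887) and Taf12 (0.877); the peak at the Taf11 start is listed under Anks1a and cannot be assigned to one of the pair. The most like Taf4b were Taf13 (0.985), Taf8 (0.977) and Taf1 (0.951). These are descriptions, since the 6 libraries share their depth scaling across all peaks.

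Compensation could also come from genes beyond the core, so the promoter peaks of further TFIID subunits, of paralogs and of the like-named TAFs of RNA polymerase I, of SAGA (a coactivator that shares TAFs with TFIID) and of proteins that bind TBP were examined. Of 34 such genes with a promoter peak, 2 were higher and 1 lower, beside the 12.7% and 6.44% of all promoter peaks given above, so neither share exceeded that of all promoter peaks. None of the 6 further TFIID subunits was called: their log2 fold changes ranged from −0.17 for Taf11 to 0.22 for Taf15 (adjusted p = 0.22 and 0.093 by limma), with Taf1, Taf2, Taf7 and Taf13 between them, and under each of the other scalings 1 was called lower, beside 1 called higher after quantile normalization. Of 10 genes in the list of paralogs and polymerase I TAFs, 8 had a promoter peak and 1 was called, Tbpl1, which encodes a TBP-like factor. The peak at its start, to which the table assigns no gene, had 2780, 2598 and 3367 in Control and 3709, 3364 and 3534 in Taf4a sKO (0.29, SE 0.11, adjusted p = 0.033 by limma); Taf4a sKO replicate 2 lay just below the highest Control library, and the call was lost without any single library other than Control replicate 3 (adjusted p from 0.061 to 0.14). Its log2 fold change was 0.17, 0.14 and 0.18 under the 3 other scalings, with the call kept. The other paralogs with a peak were Taf9b, Taf5l and Taf6l. Taf1a, Taf1b, Taf1c and Taf1d, which encode subunits of the RNA polymerase I factor SL1 and are not paralogs of TFIID subunits, had a peak each, while Taf7l and Tbpl2 had no promoter peak.

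Of the 16 SAGA genes, Supt3 alone was called. Without Control replicate 3, 4 of the 16 were higher, and 29.6% of all promoter peaks. SUPT3 carries histone folds related to those of TAF13 and TAF11. Its promoter peak had 2369, 2191 and 2693 in Control and 3124, 2993 and 3067 in Taf4a sKO, without overlap (log2 fold change 0.35, SE 0.10, adjusted p = 0.0084 by limma), and it was 0.23, 0.20 and 0.23 under the 3 other scalings, with the call kept. Of 6 TBP partners, Gtf2b, which encodes the TFIIB factor that joins TBP and the polymerase, was lower, with 1357, 1251 and 1446 against 1116, 1072 and 1112 (−0.29, SE 0.10, adjusted p = 0.026 by limma). That call was lost without Control replicate 1 or any of the Taf4a sKO libraries (adjusted p from 0.065 to 0.11). The others, Gtf2a1, Gtf2a2, Btaf1, Dr1 and Drap1, were not called, but under the other scalings 2 to 4 of the 6 were lower, as were 4 to 8 of the 16 SAGA genes and 3 or 4 of the 8 paralogs and polymerase I TAFs (Taf1c, Taf1d, Taf5l and, under 2 of the scalings, Taf6l), where 22.9% to 33.7% of all promoter peaks were lower.

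**Figure D5:**
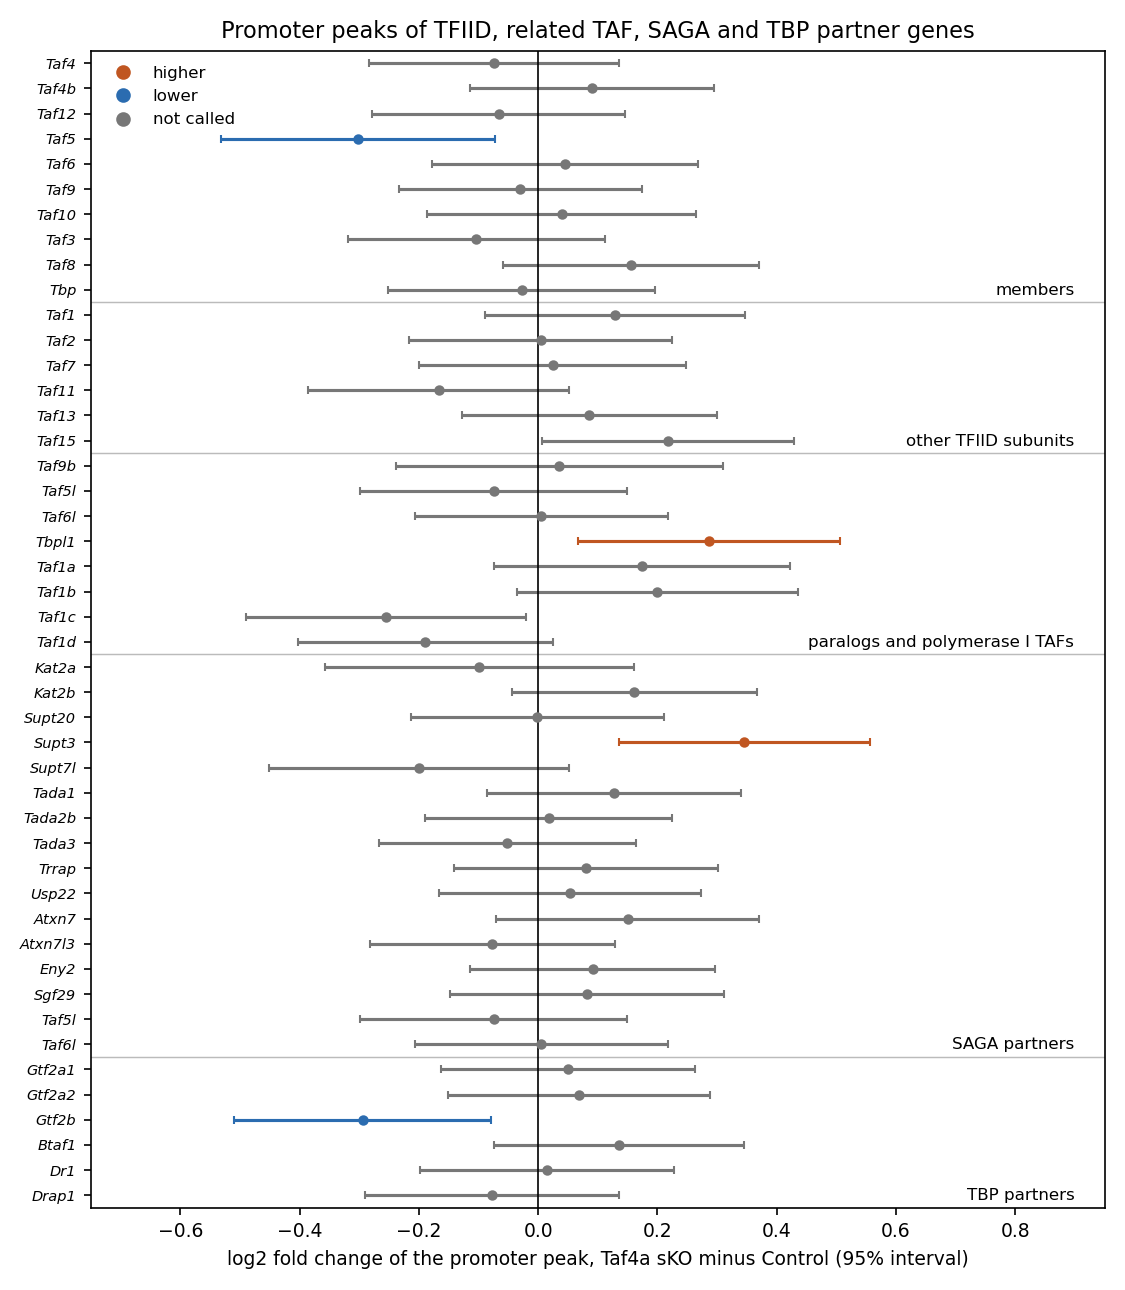
Log2 fold change of the promoter peak (horizontal axis, Taf4a sKO minus Control) with its 95% interval for the members, the other TFIID subunits, the paralogs and polymerase I TAFs, SAGA genes and TBP partners, where Taf5l and Taf6l stand in that list and in the SAGA list. Calls are coloured (higher in orange, lower in blue), and Tbpl1, Supt3, Gtf2b and Taf5 are the only called promoters.

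The sorted population was checked against marker promoters. All 8 MuSC markers had a promoter peak, with summed values of 14178, 11736 and 14348 in Control and 13419, 12622 and 12680 in Taf4a sKO, and Pax7 the highest. Among them Pax7 was lower, with 4533, 3128 and 3729 against 3084, 2923 and 3026 (log2 fold change −0.32, SE 0.11, adjusted p = 0.030 by limma). Control replicate 1 stood well above the other libraries at this peak, and the Pax7 difference without it is not given here. Vcam1 was higher, with 572, 534 and 540 against 749, 697 and 658 (0.35, SE 0.12, adjusted p = 0.018 by limma), and the other 6 were not called. None of the 4 haematopoietic markers (Ptprc, Cd52, Laptm5, Cd53) had one. Of 4 endothelial markers, Pecam1 (its peak is listed under Milr1) and Kdr had one, summing to 221, 210 and 275 against 230, 226 and 209, while Cdh5 and Tie1 had none. Of 4 mesenchymal markers, Pdgfra, Dcn and Col1a1 had one and Ly6a, which encodes the SCA1 antigen used for depletion, had none. They summed to 1747, 1518 and 1905 in Control and 2710, 2486 and 2459 in Taf4a sKO, with Col1a1 the highest, and Dcn and Col1a1 were higher in Taf4a sKO (log2 fold changes 0.84 and 0.63, adjusted p = 3.2e-04 and 8.0e-05 by limma). The myofibre markers Myh4 and Tnnt3 summed to 738, 672 and 793 against 828, 667 and 686, with Acta1 and Ckm lacking a promoter peak. The part of the mesenchymal and Pax7 differences in the results above was not tested. In bulk libraries such as these, a change in the share of a cell type cannot be told apart from a change in accessibility per cell.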

How the data were processed

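ATAC-seq values of 6 libraries (3 Control, 3 Taf4a sKO) in 75412 common peaks were analysed. According to the methods and the submitters' processing notes, the authors trimmed reads with Trimmomatic 0.39, aligned them to mm10 with STAR 2.7.11b, removed duplicates with Picard 3.1.1 and counted reads in unified peaks. A Tn5 shift is not described. The deposited scores are these counts times a depth factor per library, rounded; the distance column was used for no result. The factors, recovered from whole numbers missing among the scores, were 1.39, 1.00 and 1.23 (Control) and 1.39, 1.37 and 1.29 (Taf4a sKO), so count models were not used as the main test.

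Peaks with a mean score above 10 were tested with limma 3.58.1 in R 4.3.3 (trend, robust) on log2(score + 1), after a test on simulated data, with Benjamini-Hochberg adjustment and a threshold of 0.05. Exact permutation tests used SciPy. Promoter peaks lay within 1000 bp of a coding start in GENCODE M21, whose member coordinates equal those of the table; exon numbers follow the transcript with the largest span. Named were each member's promoter peak, every other called member peak and called promoters of related lists; the values of uncalled peaks were added for completeness. Members, lists and tests were chosen with earlier results of these data known. The alternatives covered scaling, pseudocount, filter, limma-voom on recovered reads, promoter distance, replicate block and each library left out. The limma p-values draw on the spread between 3 libraries per genotype and on a variance trend over all peaks. The small number of libraries limits their precision. One marker list is not reported here.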

Additional observations from a re-analysis of the deposited data

How the results depend on the processing

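All 9 called peaks of the set kept their direction under every alternative fit in which they were tested (Taf4b exon 7 was not, with a minimum mean of 50), and 3 of them (Taf5 promoter, Taf4 intron 14, Taf3 intron 2 at 92417 bp) lost the call in at least one fit. With the libraries scaled otherwise, the median log2 fold change of all peaks moved from 0.11 as deposited to −0.01, −0.04 and −0.02 under median-of-ratios, equal totals in peaks and quantile scaling, and the share of calls that were higher moved from 66.8% to 53.0%, 47.6% and 49.7%; the cause was not tested. Lower peaks then numbered 10, 11 and 11 in place of 6, and lower promoter peaks 4, 5 and 5 in place of 1, while 22.5%, 25.8% and 25.1% of all peaks were lower in place of 13.9%.

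Small estimates turned with scaling. In the same order of scalings the log2 fold change was −0.02, −0.06 and −0.03 for the Taf4b promoter, −0.07, −0.10 and −0.14 for the Taf6 start, −0.07, −0.11 and −0.14 for the Taf10 promoter, −0.07, −0.11 and −0.17 for the Taf3 intron 2 peak at 62440 bp, −0.03, −0.07 and −0.06 for that at 52260 bp and −0.05, −0.08 and −0.08 for that at 38428 bp. Taf4b exon 13 was at −0.03 with equal totals.

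Leaving out one library gave 2 to 6 higher and 4 to 6 lower peaks, and 0 to 1 higher and 0 to 1 lower promoter peaks. Over the whole table it gave 16024 to 28502 higher and 8565 to 10038 lower peaks, of 75359 to 75388 tested. The 6 higher peaks arose without Control replicate 3. In that fit 4 SAGA, 3 paralog or polymerase I TAF, 1 TBP partner and 1 further TFIID promoters were also higher, beside 37.8% of all peaks and 29.6% of all promoter peaks. Leaving out one library turned the sign of the Taf6 start (range −0.03 to 0.11), the Taf9 start (−0.08 to 0.02), the Taf10 (−0.02 to 0.13) and Tbp (−0.12 to 0.06) promoters and the Taf3 intron 2 peaks at 38428 bp (−0.05 to 0.17) and 52260 bp (0.00 to 0.20). For exon 12 relative to the other Taf4 body peaks the range was −1.21 to −0.70, and with the promoter peak as the reference the difference was −1.51.

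With a log2 ratio of means beyond 1, 0 peaks were higher and 3 lower (Taf4 exon 12, Taf4b exon 7 and Taf12 exon 6), so 6 of the 9 called peaks did not reach it, and 0 promoter peaks lower. By symbol only, 1 of 11 peaks was higher and 1 lower, beside 28.0% and 13.9% of all tested peaks. Within 3000 bp of any coding start of a member, 1 peak was higher, the Taf3 intron 2 peak centred 92417 bp from the Taf3 gene start. Adding the starts of Taf6 and Taf9, an alternative chosen after seeing the data, changed no count.

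Same-numbered libraries correlated at 0.11, −0.12 and −0.03 in their deviations from the group means, so the numbers were not taken to pair them. With the replicate block, 3 peaks were higher and 6 lower, beside 21944 higher and 11004 lower of all 75384 tested peaks. In that fit 0 promoter peaks were higher and 1 lower, and the share of all promoter peaks was not counted. The exon 12 difference stayed at −0.92 (exact permutation within same-numbered pairs, p = 0.5). With 3 pairs, the smallest possible p of that test is larger than the 0.1 of the unpaired test. Peaks with few reads, such as Taf4b exon 7, are limited by counting error.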
